A study of Homo sapiens with 6 samples.

Results

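The genes described here encode the working parts of the lysosome other than the cathepsins, namely its acid hydrolases, the proteins that assist them, the proteins of its limiting membrane and its proton pump. The members were listed by symbol, and a row of the table of reads was taken where its gene symbol was on that list. All 35 listed symbols were found, in 36 of the 26899 rows, because the symbol CLN3 stood on 2 rows. The members comprised 17 hydrolases, 4 activators or soluble binding proteins, 8 rows of membrane proteins, 6 subunits of the vacuolar proton pump (V-ATPase) and the transcription factor TFEB. All 36 rows passed the filter on low counts, by which 15299 genes were tested.

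Lysosomes break down proteins, lipids, glycans and glycogen delivered by endocytosis and autophagy, and they are prominent in the kidney proximal tubule, which takes up filtered protein. Most of their hydrolases are soluble, carry a mannose 6-phosphate tag and work only in the acid lumen that the V-ATPase maintains. Many genes of the organelle carry a short E-box-type element near their start that is bound by TFEB and its relative TFE3. Inherited loss of single members gives storage diseases, such as Pompe disease for GAA and Tay-Sachs disease for HEXA.

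In order to examine the effect of reducing annexin A2, 6 RNA-seq libraries of polyadenylated RNA were prepared from HK-2 cells. HK-2 is an established human line that derives from the kidney proximal tubule and was transformed with human papillomavirus 16. All 6 libraries came from this line, and per the labels its cells were transfected with plasmid by a Lipofectamine reagent. The 3 libraries labelled ANXA2 knockdown were described as shANXA2, and the 3 labelled wild type were described as shCtrl, so the labels do not settle whether the control cells received a control hairpin. They are called knockdown 1 to 3 and control 1 to 3. The time after transfection and the number of hairpins are not known from the labels. Nothing in the labels says that the replicates were separate cultures, and p-values then measure only the spread between these libraries, which may be technical.

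The targeted gene was examined first. Reads of a gene are given as CPM, counts scaled to a common library total with the TMM factors of edgeR. ANXA2 stood at 1658, 1461 and 1675 CPM in control 1 to 3 and at 1538, 1561 and 1519 CPM in knockdown 1 to 3, so the groups overlapped. Its log2 fold change, knockdown over control, was −0.05 (SE 0.07, edgeR adjusted p = 0.848), and the 95% interval ran from a 14.3% lower to an 8.29% higher level. The RNA of the targeted gene therefore does not distinguish the labels, and the groups are named below only as the libraries labelled control and the libraries labelled knockdown. The libraries held 24231267 to 34561675 counted reads, and control 1, the shallowest, stood apart on the first principal component (38.5% of the variance). Of 7 epithelial markers 6 were present at 1 FPKM or more (summed level 751 to 1165), where FPKM is a level scaled for depth and transcript length. The exception was CDH1 at 0.01 to 0.11 FPKM, whereas CDH2 on the same list stood at 27.7 to 37.7 FPKM. Of the proximal tubule markers only GGT1 reached 1 FPKM among 9 with a row (summed 61.6 to 82.0), and AQP1 and CUBN were at or near 0. The summed level of 7 leukocyte and macrophage markers was 0.92 to 1.84 FPKM in control and 1.38 to 2.30 in knockdown libraries, 5 fibroblast markers summed to 8.42 to 10.0 and 7.87 to 8.79, and 3 endothelial markers to at most 0.07.

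None of the 36 lysosome rows passed an adjusted p of 0.05 in the quasi-likelihood test of edgeR (lowest member value 0.599), and the same test called 0 of 15299 genes (0%). DESeq2 called 31 of 16467 genes (0.188%) and 0 members, with a lowest member adjusted p of 0.32. The estimates nevertheless lay more often above 0 than those of other genes. They were positive for 26 of 36 rows (72.2%), MAN2B1 among them at 0.00, against 49.0% of all tested genes and 48.4% of the 10658 tested genes in the same range of CPM. The count was 23 with library sizes alone and 29 with a correction for GC content. The median member estimate was 0.07 on the log2 scale, against −0.01 over all tested genes. It was 0.05 against −0.03 with library sizes alone, and 0.07 against 0.02 with the correction for GC content. The share of reads from mitochondrial genes also differed between the labels without overlap, at 6.01 to 6.5% in control and 5.26 to 5.6% in knockdown libraries, and its part in the member estimates was not tested. The members share 6 libraries, so their signs are not independent observations, and no test was made of this share. In bulk RNA a change in the number of expressing cells and a change of RNA per cell cannot be told apart.

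**Figure D1:**
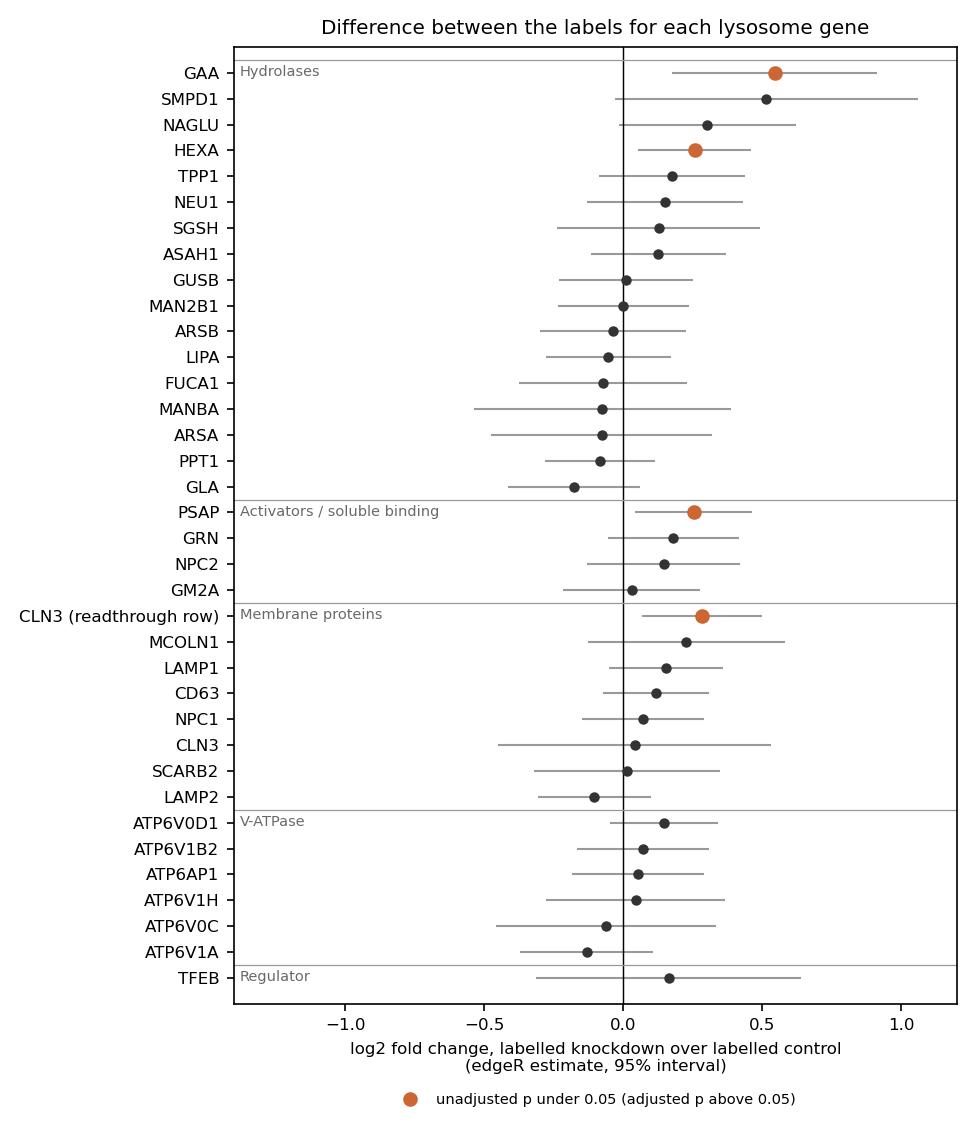
Log2 fold change of each lysosome row, libraries labelled knockdown (n = 3) over libraries labelled control (n = 3), with the 95% interval of the edgeR estimate. Rows are grouped by class and ordered by estimate; the 4 rows in colour had an unadjusted p under 0.05, and the lowest adjusted p of the 36 was 0.599.

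At an unadjusted p under 0.05, 4 members were higher in the libraries labelled knockdown, GAA, HEXA, PSAP and the second row of CLN3, and 0 were lower. Over all tested genes 590 were higher (3.86%) and 661 lower (4.32%) at this threshold. This count rested on single libraries, being 1 without control 3, 1 without knockdown 1 and 7 without control 1. The share of all tested genes at this threshold, in either direction, was 8.18% with all libraries and 8.87%, 3.21% and 12.4% in those 3 fits. The 3 knockdown values lay above all 3 control values for 6 members (7.94% of all tested genes did so) and below them for 1 member, GLA (7.7% of all tested genes). These 7 were 12 without control 1, 12 without control 2 and 13 without knockdown 3, where fewer libraries have to separate. The share of all tested genes was not computed with those libraries left out, so these counts have no background. The 95% interval excluded 0 for 4 of 36 rows. It lay within a 2-fold change either way for 35 of 36 rows and within 1.5-fold for 32. The share of all tested genes within these bounds was not computed. The median SE was 0.11 over members and 0.18 over all tested genes, so narrower intervals are no trait of the members' response.

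**Figure D2:**
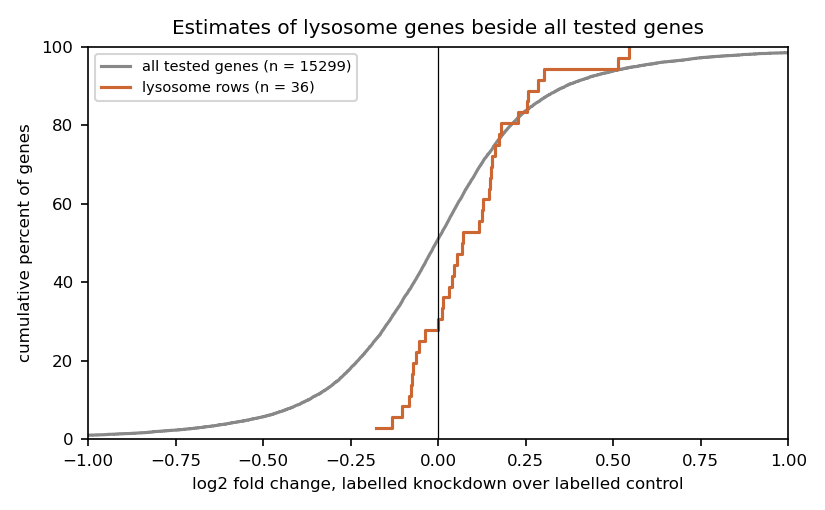
Cumulative percent of genes (vertical axis) at or below a log2 fold change, knockdown over control (horizontal axis), for the 36 lysosome rows and the 15299 tested genes. The curve of the lysosome rows starts at −0.18, crosses 0 after 10 of 36 rows and ends at 0.54; tested genes beyond 1 on either side are outside the plot.

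TFEB, which drives many lysosome genes when it is in the nucleus, was the least abundant member at a mean of 1.25 FPKM. It stood at 6.85, 4.56 and 5.36 CPM in control 1 to 3 and at 6.42, 6.69 and 5.61 CPM in knockdown 1 to 3. Control 1 held the highest value and control 2 the lowest, and the groups overlapped. The log2 fold change was 0.16 (SE 0.21, edgeR adjusted p = 0.838) with a 95% interval from −0.31 to 0.64. Without control 1 it was 0.33 and without control 2 0.04. RNA level does not report where the protein is in the cell.

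Promoters of RefSeq (GRCh38.p14), 250 bases before to 50 after each gene start, were matched for 24 of the 35 symbols. They were searched on both strands for TCACGTGA, the palindromic core of the element bound by TFEB, and for CACGTG, the E-box inside it. The core was present for 5 of 24 members (20.8%), against 1.18% of the 27305 genes with a promoter. A gene counted where any of its promoter entries held the sequence, and these 27305 genes were not limited to those tested here. CACGTG was present for 8 of 24 members (33.3%), against 8.77% of all genes, and the longer form GTCACGTGAC for 2 of 24 (8.33%), against 0.421%. A match is a description of the sequence and not evidence of binding. Entries for ASAH1, HEXA, NAGLU, SGSH, ARSA, MANBA, PSAP, LAMP2, ATP6V1A, ATP6V1B2 and ATP6V1H were not matched.

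The windows that hold the core are shown for all 5 genes, which are a hydrolase, 3 membrane proteins and a pump subunit. Each is 30 bases, 5′ to 3′ on the strand of the gene, with the core in capitals. GAA has 2 such sites on the plus strand of chromosome 17, at chr17:80101493-80101522 and chr17:80101538-80101567. Annotations place the start of GAA differently, and the GENCODE start used for its coordinates lies between these sites. LAMP1 has 2 on the plus strand of chromosome 13, at chr13:113297199-113297228 and chr13:113297226-113297255. MCOLN1 has 2 on the plus strand of chromosome 19, at chr19:7522571-7522600 and chr19:7522598-7522627. CLN3 has 1 on the minus strand of chromosome 16, at chr16:28492058-28492087, and ATP6V0D1 has 1 on the minus strand of the same chromosome, at chr16:67481199-67481228.
GAA site 1: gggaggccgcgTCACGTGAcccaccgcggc
GAA site 2: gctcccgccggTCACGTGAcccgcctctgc
LAMP1 site 1: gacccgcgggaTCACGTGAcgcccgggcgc
LAMP1 site 2: cgcggcgcagcTCACGTGAcaagcgctgcc
MCOLN1 site 1: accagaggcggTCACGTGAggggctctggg
MCOLN1 site 2: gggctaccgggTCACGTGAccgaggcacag
CLN3: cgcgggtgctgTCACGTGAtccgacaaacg
ATP6V0D1: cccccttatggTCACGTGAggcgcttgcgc

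Promoters were matched by symbol, so both rows of CLN3 are counted here as having the core. The first row, the one that GENCODE names CLN3, has its outermost start upstream of the promoter searched. The 6 rows with the core all had positive log2 fold changes, from 0.04 to 0.54 with a median of 0.19. With the first row of CLN3 left out, the 5 rows ranged from 0.15 to 0.54 with a median of 0.23. The 19 rows whose matched promoter lacked the core had a median of 0.03 and a range from −0.18 to 0.51, with 13 positive. In the edgeR fit reported, 2 of the 6 rows with the core (GAA and the second row of CLN3) had an unadjusted p under 0.05. So did 0 of the 19 without it and 8.18% of all tested genes, in either direction. These counts changed with the fit. SMPD1, without the core, also passed with DESeq2, with the replicate block, without the low-count filter and without control 1. NEU1 passed without control 2, and GRN and TPP1 without knockdown 3, all lacking the core. LAMP1, with the core, passed without control 1. Only GAA passed without control 3 or without knockdown 1. Corrected for GC content, the medians lay closer together, at 0.13 with and 0.07 without the core. The median with the core was 0.15 when the first row of CLN3 was left out. Without knockdown 3 the medians were 0.12 with and 0.07 without the core, and without control 2 they were 0.24 and 0.04. The first row of CLN3 fell below 0 without control 3 and without knockdown 2. HEXA and PSAP, the other members at an unadjusted p under 0.05 in the fit reported, were among those without a promoter entry. The difference between the groups of rows was not tested, since the members were listed with earlier results of these data known.

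The 17 hydrolases ranged from 3.30 FPKM for MANBA to 91.1 FPKM for PPT1. The median of their log2 fold changes was 0.01, and 10 of 17 estimates were positive. None passed an adjusted p of 0.05 and GAA and HEXA had an unadjusted p under 0.05, both with higher levels in the libraries labelled knockdown. Their summed level was 390, 409 and 367 FPKM in control 1 to 3 and 388, 401 and 394 FPKM in knockdown 1 to 3, which overlapped, with means 1.39% apart. The class median rested on the libraries used. It was 0.118 without control 1, 0.0874 without knockdown 3 and −0.0144 with library sizes alone in place of TMM, so no direction is given for the class.

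GAA (ENSG00000171298.12, chr17:80101533-80119881), the acid alpha-glucosidase that clears glycogen, had the largest estimate of all members. It stood at 16.0, 12.02 and 16.3 CPM in control 1 to 3 and at 19.02, 24.2 and 21.3 CPM in knockdown 1 to 3. All 3 knockdown libraries lay above all 3 control libraries, with control 2 the lowest. Knockdown over control, this was a log2 fold change of 0.54 (SE 0.16, edgeR adjusted p = 0.599), a 45.9% higher level with a 95% interval from 12.98% to 88.3%. GAA kept an unadjusted p under 0.05 whichever 1 library was left out, and it was the single member to do so.

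SMPD1 (ENSG00000166311.9, chr11:6390440-6394998), the acid sphingomyelinase, had the next largest estimate but wide scatter among controls. It stood at 22.8, 11.2 and 13.8 CPM in control 1 to 3 and at 24.6, 19.6 and 23.7 CPM in knockdown 1 to 3. Control 1 alone reached the knockdown range, so the groups overlapped. On the log2 scale the estimate was 0.51 (SE 0.24, edgeR adjusted p = 0.615), with an interval from −0.03 to 1.06, the only member interval that reached beyond a 2-fold change. The estimate was 0.86 without control 1 and 0.32 without control 2.

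HEXA (ENSG00000213614.9, chr15:72340924-72376420), the alpha subunit of the beta-hexosaminidase that degrades GM2 ganglioside, was the tightest of the higher members. It stood at 60.3, 57.6 and 58.6 CPM in control 1 to 3 and at 71.0, 70.0 and 69.9 CPM in knockdown 1 to 3. The groups did not overlap, and the SD was 1.38 CPM among control and 0.61 CPM among knockdown libraries. The difference on the log2 scale was 0.26 (SE 0.09, edgeR adjusted p = 0.599), a 19.5% higher level. In GENCODE release 44 14.1% of its exonic bases face genes on the opposite strand and 3.88% are shared with a same-strand gene, ENSG00000260729, which held 918 to 1385 reads per library.

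NAGLU (ENSG00000108784.9, chr17:42536241-42544449), which removes N-acetylglucosamine from heparan sulfate, also did not overlap. It stood at 17.8, 14.2 and 17.3 CPM in control 1 to 3 and at 21.5, 18.6 and 20.7 CPM in knockdown 1 to 3. The lowest knockdown library was 18.6 CPM against 17.8 CPM for the highest control library. The log2 fold change was 0.30 (SE 0.14, edgeR adjusted p = 0.615), with an interval from −0.02 to 0.62, or 0.19 when GC content was corrected for.

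GLA (ENSG00000102393.9, chrX:101393273-101408012), the alpha-galactosidase lost in Fabry disease, was the single member whose knockdown values all lay below the control values. It stood at 63.4, 74.3 and 65.2 CPM in control 1 to 3 and at 56.0, 61.6 and 61.9 CPM in knockdown 1 to 3. The gap between the groups was small beside the spread among controls, of which control 2 was highest. Knockdown over control, this was a log2 fold change of −0.18 (SE 0.11, edgeR adjusted p = 0.656). It was −0.0773 when GC content was corrected for and −0.103 without control 2. The neighbouring RPL36A, of which 18620 to 24621 reads were counted, faces 8.99% of the exonic bases of GLA on the opposite strand, and how strand was treated in the counting is not known here.

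The most abundant hydrolases were PPT1, which removes palmitate from proteins, and NEU1, the lysosomal sialidase. PPT1 (ENSG00000131238.16) stood at 286, 295 and 277 CPM in control 1 to 3 and at 249, 276 and 285 CPM in knockdown 1 to 3. Its groups overlapped, and the log2 fold change was −0.08 (SE 0.09, edgeR adjusted p = 0.798). NEU1 (ENSG00000204386.10) stood at 160, 200 and 144 CPM in control 1 to 3 and at 191, 187 and 182 CPM in knockdown 1 to 3. The knockdown libraries agreed within 4.54 CPM (SD), the control libraries spanned both ends of the range, and the log2 fold change was 0.15 (SE 0.12, edgeR adjusted p = 0.735).

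The remaining 10 hydrolases all had overlapping groups and adjusted p-values from 0.687 to 1.0 in edgeR. Positive estimates were those of the peptidase TPP1 (0.17), the heparan sulfamidase SGSH (0.13), the acid ceramidase ASAH1 (0.13) and the beta-glucuronidase GUSB (0.01). MAN2B1, an alpha-mannosidase, stood at 0.00. Below 0 were the fucosidase FUCA1 (−0.07), the arylsulfatases ARSA (−0.08) and ARSB (−0.04), the beta-mannosidase MANBA (−0.08) and the lipase LIPA (−0.05), which hydrolyses cholesteryl esters. Of these, GUSB, MAN2B1, ARSB, MANBA and LIPA turned sign when GC content was corrected for. LIPA shares its locus with interferon-induced genes on the opposite strand. IFIT3 and IFIT2 overlap it and held more reads in knockdown libraries, 1105 to 1624 against 818 to 899 for IFIT3 and 189 to 314 against 115 to 145 for IFIT2 (log2 fold changes 0.51 and 0.86, edgeR adjusted p = 0.605 and 0.599). Their part in the LIPA reads was not tested.

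**Figure D3:**
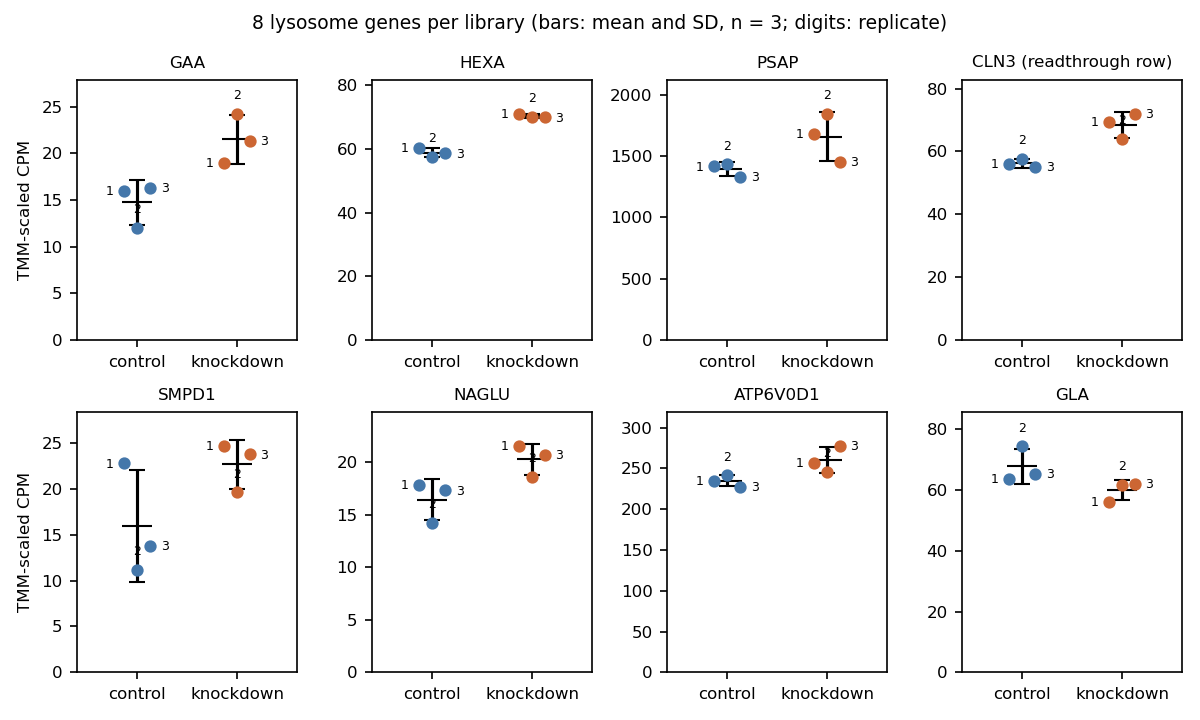
TMM-scaled CPM of 8 lysosome rows in each library, with the mean and SD of the 3 libraries per label (vertical axes start at 0; digits give the replicate number). The groups do not overlap for GAA, HEXA, PSAP, the second row of CLN3, NAGLU, ATP6V0D1 and GLA, whereas control 1 of SMPD1 at 22.8 CPM lies within the knockdown range.

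The activators and soluble binding proteins present lipids to the enzymes or stabilise them, and they included the most abundant member. All 4 estimates were positive, from 0.03 to 0.25 on the log2 scale with a median of 0.16, and 0 passed an adjusted p of 0.05. The summed level was 716, 707 and 688 FPKM in control 1 to 3 and 822, 874 and 740 FPKM in knockdown 1 to 3. All knockdown libraries lay above all control libraries, with means 15.4% apart, and PSAP made up 65.9% of the sum. Without PSAP the sums still did not overlap, at 231 to 254 FPKM in control and 263 to 276 FPKM in knockdown libraries. Taken singly, 3 of the 4 members had groups that overlapped. The class was set with earlier results of these data known, and its sums were not tested.

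PSAP (ENSG00000197746.13, chr10:71816298-71851251) encodes prosaposin, which is cut into 4 saposins that lift sphingolipids out of membranes for the hydrolases. It stood at 1416, 1432 and 1331 CPM in control 1 to 3 and at 1682, 1843 and 1453 CPM in knockdown 1 to 3. The groups did not overlap, but knockdown 3 lay closer to the highest control than to the other two knockdown libraries. On the log2 scale the estimate was 0.25 (SE 0.09, edgeR adjusted p = 0.605), a 19.1% higher level with an interval from 3.04% to 37.7%.

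GRN (ENSG00000030582.16, chr17:44345246-44353106) encodes progranulin, which binds prosaposin and is split into granulins in the lysosome. It stood at 345, 338 and 342 CPM in control 1 to 3 and at 408, 424 and 330 CPM in knockdown 1 to 3. Knockdown 1 and 2 lay above the controls and knockdown 3 below them. The difference on the log2 scale was 0.18 (SE 0.10, edgeR adjusted p = 0.647). The peptidase TPP1 had the same order of knockdown libraries, at 101, 103 and 80.01 CPM in knockdown 1 to 3 against 80.7 to 86.5 CPM in controls.

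NPC2, the soluble protein that hands cholesterol to NPC1, had 104 FPKM and a log2 fold change of 0.15 (SE 0.12). GM2A, the activator that presents GM2 ganglioside to hexosaminidase, had 7.59 FPKM and 0.03 (SE 0.11). The ratio of HEXA to GM2A in FPKM was 1.33, 1.13 and 1.22 in control 1 to 3 and 1.499, 1.45 and 1.35 in knockdown 1 to 3, which barely separated. This ratio was chosen after its values were seen and was not tested.

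**Figure D4:**
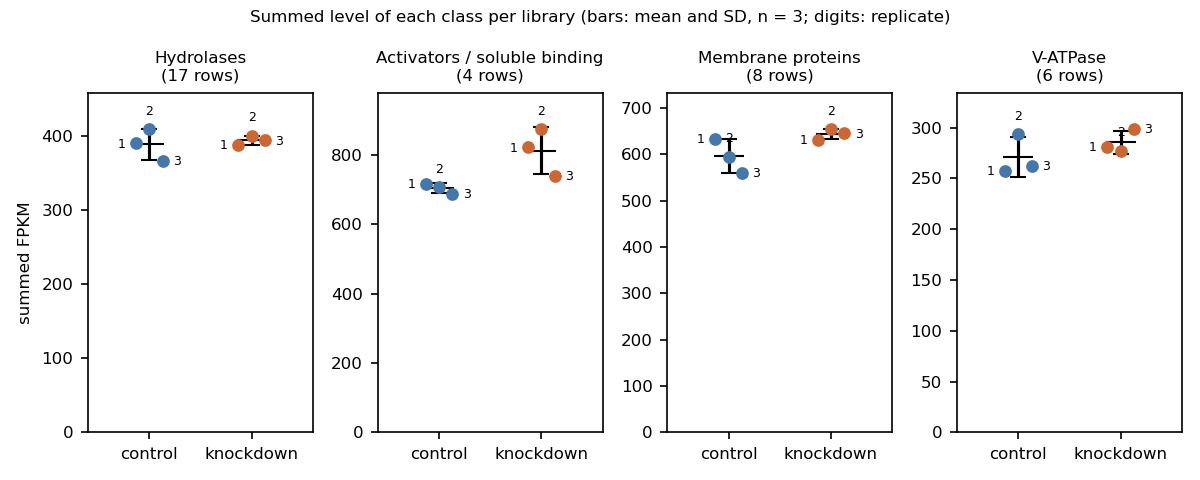
Summed FPKM of the rows of each class in each library, with mean and SD of the 3 libraries per label (vertical axes start at 0; digits give the replicate number). Of the 4 classes, only the activators and soluble binding proteins have knockdown sums (740 to 874) that all lie above the control sums (688 to 716). PSAP made up 65.9% of that sum. The classes were set with earlier results of these data known, and no difference between sums was tested.

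The 7 membrane proteins, on 8 rows, ranged from 1.75 FPKM for the first row of CLN3 to 342 FPKM for CD63. Of 8 estimates 7 were positive, and they ran from −0.10 to 0.28 on the log2 scale around a median of 0.09, and 0 passed an adjusted p of 0.05. The summed level was 633, 595 and 560 FPKM in control 1 to 3 and 631, 654 and 645 FPKM in knockdown 1 to 3. Control 1 lay within the knockdown range, so the groups overlapped, with means 7.91% apart. The class median was 0.0334 without control 3 and 0.137 without knockdown 1.

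CLN3, a membrane protein whose loss gives juvenile Batten disease, was counted on 2 rows that overlap in the genome. The second row, ENSG00000261832.4 (chr16:28456371-28492098), is a readthrough gene in GENCODE release 44 that shares 92.7% of its exonic bases with CLN3 and NPIPB7. It stood at 55.9, 57.7 and 55.1 CPM in control 1 to 3 and at 69.4, 64.0 and 71.9 CPM in knockdown 1 to 3. The groups did not overlap, and the controls agreed within 1.32 CPM (SD). The log2 fold change was 0.28 (SE 0.10, edgeR adjusted p = 0.599), a 21.7% higher level with an interval from 4.75% to 41.5%. The first row, ENSG00000188603.16 (chr16:28474111-28495575), held only 121 to 182 reads per library against 1364 to 2369 for the second. Its log2 fold change was 0.04 (SE 0.22). The rule by which reads were divided between these rows is not known here, so the level of either is uncertain.

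MCOLN1 (ENSG00000090674.15, chr19:7522624-7534009), the calcium channel TRPML1, had the next largest estimate of the class. It stood at 14.6, 19.5 and 16.8 CPM in control 1 to 3 and at 18.3, 18.5 and 22.8 CPM in knockdown 1 to 3. Control 2 lay within the knockdown range. Knockdown over control, this was a log2 fold change of 0.23 (SE 0.16, edgeR adjusted p = 0.694), and it was 0.11 when GC content was corrected for, 0.13 without control 1 and 0.12 without knockdown 3.

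The abundant glycoproteins of the membrane were CD63, a tetraspanin of late endosomes, and LAMP1, which with LAMP2 coats the lumenal face. CD63 (ENSG00000135404.11) stood at 870, 795 and 745 CPM in control 1 to 3 and at 856, 921 and 837 CPM in knockdown 1 to 3, and its log2 fold change was 0.12 (SE 0.08, edgeR adjusted p = 0.709). LAMP1 (ENSG00000185896.10) stood at 507, 422 and 443.9 CPM in control 1 to 3 and at 504, 495 and 527 CPM in knockdown 1 to 3, and its log2 fold change was 0.15 (SE 0.09, edgeR adjusted p = 0.655). In both genes control 1 alone reached the knockdown range.

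LAMP2, which is also needed for the fusion of autophagosomes, had the lowest estimate of the class at −0.10 (SE 0.09, edgeR adjusted p = 0.751). The level of LAMP2 was 0.144 to 0.181 times that of LAMP1 in control libraries and 0.130 to 0.136 times in knockdown libraries, in FPKM. This ratio was chosen after its values were seen and was not tested, and LAMP2 turned sign to 0.06 when GC content was corrected for. NPC1, the cholesterol transporter, and SCARB2, the receptor that carries glucocerebrosidase to lysosomes, had estimates of 0.07 (SE 0.10) and 0.01 (SE 0.15) with overlapping groups.

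**Figure D5:**
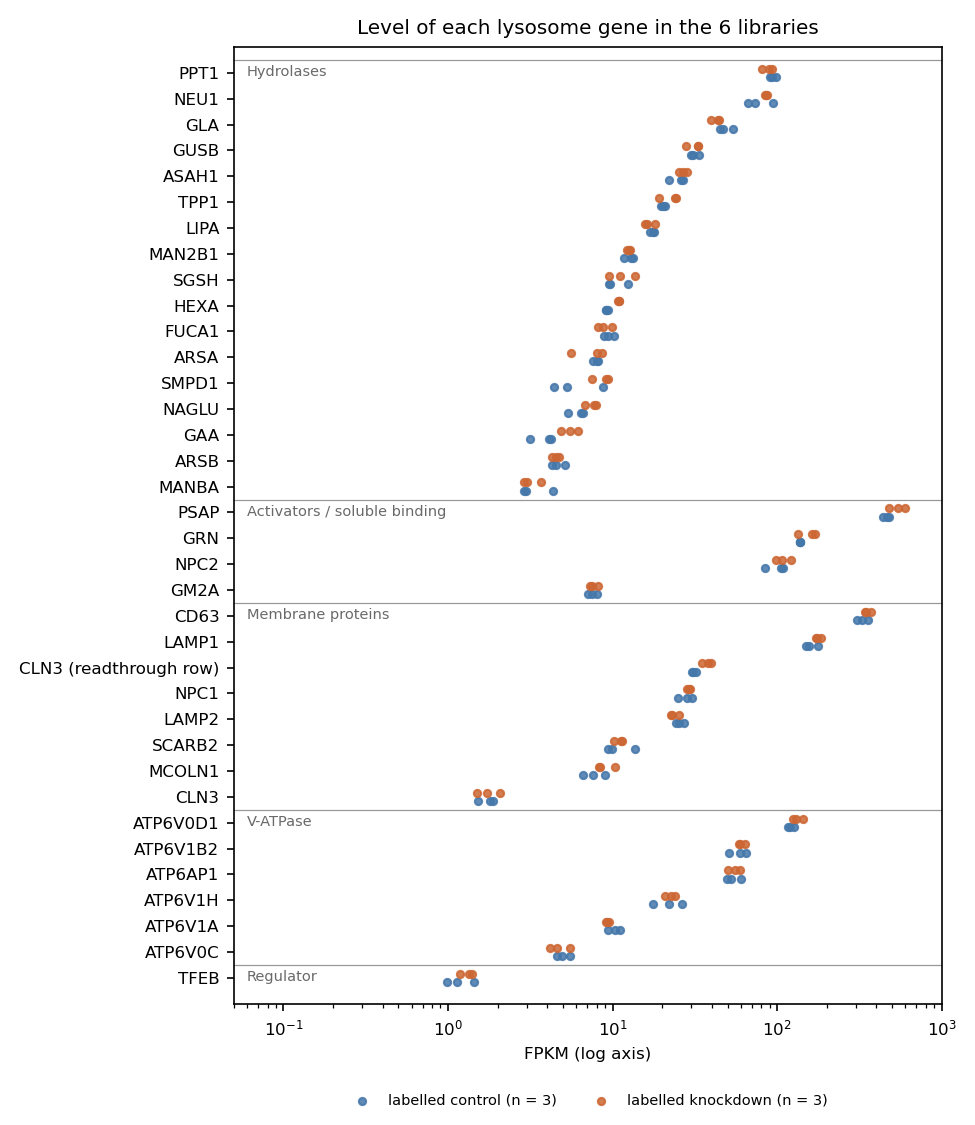
FPKM of each lysosome row in each library on a log axis, grouped by class and ordered by mean level within it. Mean levels span from 1.25 FPKM for TFEB to 500 FPKM for PSAP, and the points of the labels lie close together within most rows.

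The V-ATPase has a membrane sector, V0, through which protons pass, and a cytosolic sector, V1, which hydrolyses ATP. Of 6 subunits 4 had positive estimates, between −0.13 and 0.15 over all 6 with a median of 0.05 on the log2 scale, and 0 had an unadjusted p under 0.05. That median changed sign to −0.04 without control 1 and was 0.14 without control 2. The summed level was 257, 293 and 262 FPKM in control 1 to 3 and 281, 277 and 298 FPKM in knockdown 1 to 3, which overlapped.

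ATP6V0D1 (ENSG00000159720.11, chr16:67438014-67481181), which couples the sectors, was the single subunit whose groups did not overlap and had the highest FPKM of the subunit rows as counted, where the level of ATP6V0C is uncertain. It stood at 235, 241 and 228 CPM in control 1 to 3 and at 257, 246 and 277 CPM in knockdown 1 to 3. Knockdown 2 lay only just above control 2. On the log2 scale the estimate was 0.15 (SE 0.09, edgeR adjusted p = 0.653), with an interval from −0.05 to 0.34.

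ATP6V1A (ENSG00000114573.9, chr3:113746770-113812056), the catalytic subunit of V1, had the lowest estimate of the pump. It stood at 54.2, 49.3 and 45.8 CPM in control 1 to 3 and at 46.8, 45.2 and 44.2 CPM in knockdown 1 to 3. Control 3 lay within the knockdown range, and the log2 fold change was −0.13 (SE 0.11, edgeR adjusted p = 0.727), or 0.01 when GC content was corrected for. ATP6V1B2 (ENSG00000147416.10), which alternates with it in the same ring of the complex, stood at 156, 195 and 181 CPM in control 1 to 3 and at 183, 197 and 178 CPM in knockdown 1 to 3. The difference on the log2 scale was 0.07 (SE 0.11, edgeR adjusted p = 0.863), and control 1 was the lowest library. The level of ATP6V1A in FPKM was 0.217 times that of ATP6V1B2 in control 1 and 0.143 to 0.160 times in the other 5 libraries, so the RNA of these partners was unequal in every library.

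ATP6V1H, a regulatory subunit of V1, and the accessory protein ATP6AP1 had estimates of 0.04 (SE 0.14) and 0.05 (SE 0.10) with overlapping groups. ATP6V0C, the proteolipid of the proton-carrying ring, had an estimate of −0.06 (SE 0.18) and only 4.87 FPKM. The level of ATP6V0C is uncertain. It shares 76.3% of its exonic bases with same-strand genes, and one of these, the readthrough gene RP11-20I23.1 (ENSG00000260272.1), held 6691 to 10760 reads per library. RP11-20I23.1 stood at 133 to 162 FPKM, beside 117 to 143 FPKM for ATP6V0D1, with a log2 fold change of 0.11 (SE 0.09, edgeR adjusted p = 0.737).

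Across members, the libraries did not contribute evenly. Control 3 was the highest library for 0 of 36 rows and the lowest for 9, whereas knockdown 2 was the highest for 8 and the lowest for 1. Knockdown 3 was the highest for 10 and the lowest for 7, and control 2 was the highest for 8 and the lowest for 8. The median log2 ratio to the mean of the member was −0.11 in control 3 and lay between −0.01 and 0.05 in the other 5 libraries. Hence the summed level of all members, 1998, 2006 and 1879 FPKM in control 1 to 3 and 2123, 2207 and 2079 FPKM in knockdown 1 to 3, was lowest in control 3. The groups of these sums did not overlap, with means 8.95% apart, or 6.23% apart without PSAP. The median coefficient of variation over members was 8.6% among control and 7.22% among knockdown libraries.

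Other genes of the pathway were read from 5 lists of 92 symbols, of which 87 rows were tested. None passed an adjusted p of 0.05 in edgeR (lowest 0.583). At an unadjusted p under 0.05, 8 were higher and 3 lower, beside 3.86% and 4.32% of all tested genes. Positive estimates numbered 58 of 87 (66.7%), beside 49.0% of all tested genes, whose median estimate was −0.01. Other lysosomal hydrolases had 16 of 22 positive estimates and a median of 0.07 on the log2 scale. Other V-ATPase subunits had 10 of 13 and a median of 0.07, whereas other lysosomal membrane proteins had 11 of 19 and a median of 0.01. Genes of mannose 6-phosphate tagging and sorting had 8 of 12 and a median of 0.03. The TFE factors with the genes of lysosomal nutrient sensing had 13 of 21 and a median of 0.04.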

How the data were processed

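The authors deposited raw counts of reads for 26899 genes and FPKM values for 26803 genes, both for all 6 libraries, and the counts had not been normalised. Genome build GRCh38, bcl2fastq, TopHat2 and edgeR are named in the submitters' processing notes without roles or versions, and no source used here gives the counting program, the annotation release or the treatment of strand. The deposited counts were scaled with TMM (factors 0.987 to 1.02) and tested two-sided in R 4.3.3 (edgeR 4.0.16, quasi-likelihood) on 15299 genes kept by the low-count filter of the package (minimum count 10, minimum total 15). All 6 libraries entered 1 model without covariates. Benjamini-Hochberg adjustment ran over all tested genes, and an adjusted p under 0.05 was the threshold. CPM are TMM-scaled, and levels between genes were compared in FPKM only. Coordinates and exon overlaps were read from GENCODE release 44 on GRCh38.

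The members, their classes, the lists and the tests were chosen with earlier results of these data known. All members were to be named. Values in every library were to be given for members whose groups did not overlap, members at an unadjusted p under 0.05, TFEB, and per class the 2 largest estimates and the 2 highest mean levels. Promoter windows were printed for matches of TCACGTGA, and printing of protein tails was not carried out. Other pathway genes were to be named only past an adjusted p of 0.05, and any further gene was named after its values were seen. Replicates within groups differed beyond sampling noise (chi-square per degree of freedom 10.5 to 55.1), and each library entered as a sample of its own. This spread does not settle whether the libraries came from separate cultures. The labels name no batch. The alternatives were other scalings, filters and tools (DESeq2 1.42.0, limma 3.58.1), FPKM with pseudocounts of 1 and 0.1, a GC offset, a replicate block and leaving out each library. The precision is limited by 3 libraries per group.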

Additional observations from a re-analysis of the deposited data

How the results depend on the processing

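None of the members passed an adjusted p of 0.05 under any of the 18 alternatives, with a lowest member value of 0.161 without the low-count filter. Over all genes, 165 passed without that filter and 31 with DESeq2, against 0 in the edgeR fit reported (1251 at an unadjusted p under 0.05), and leaving out 1 library gave 0 to 4 (4 without knockdown 2). With 1 library left out, members at an unadjusted p under 0.05 numbered 1 to 7, beside 3.21% to 12.4% of all tested genes. Members with groups that do not overlap numbered 8 to 13. Fewer libraries have to separate there, and the share of all tested genes was not computed. With 1 library left out, the class medians of log2 fold changes ran from −0.00286 to 0.118 for hydrolases and 0.124 to 0.205 for activators. They ran from 0.0334 to 0.137 for membrane proteins and −0.0386 to 0.139 for the V-ATPase. Positive member estimates numbered 22 to 26 with 1 library left out and 22 to 29 over all 18 alternatives. Replicate numbers did not pair the libraries (correlations of same-numbered deviations −0.06, 0.12 and −0.20), and the fit with the replicate block gave 0 calls, 1076 genes and 5 members at an unadjusted p under 0.05. Of 648 member estimates under the alternatives, 44 changed sign, on 17 rows whose reported estimates were at most 0.13 in size. With the GC offset these were PPT1 (0.00096), GUSB (−0.0265), ARSB (0.0095), MANBA (0.0562), MAN2B1 (−0.0848), LIPA (0.0689), LAMP2 (0.0642), ATP6V1A (0.0101) and ATP6AP1 (−0.0011), beside ANXA2 (0.0396). With library sizes alone they were GUSB (−0.0144), MAN2B1 (−0.0228) and SCARB2 (−0.0122). In the fits of FPKM with pseudocounts of 1 (with or without a filter at 0.5) and 0.1, GUSB stood at −0.0077 and −0.0080, and MAN2B1 at −0.0117 and −0.0124. Leaving out 1 library moved GUSB from −0.0293 to 0.0874, SGSH from −0.0111 to 0.27, ARSA from −0.21 to 0.0937, ARSB from −0.0902 to 0.0335, MANBA from −0.18 to 0.14, MAN2B1 from −0.0599 to 0.0464, GM2A from −0.0089 to 0.074, SCARB2 from −0.0807 to 0.20, the first row of CLN3 from −0.0936 to 0.14, ATP6V0C from −0.17 to 0.0269, ATP6V1B2 from −0.0123 to 0.15, ATP6V1H from −0.087 to 0.19 and ATP6AP1 from −0.0052 to 0.13. The cause was not tested.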
